A study of Homo sapiens with 19 samples.

Results

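The genes for mitochondrial ribosomal proteins were followed in RNA of A549, a long-established cell line from a human lung adenocarcinoma. The study used nanostraw electroporation (NEE), which opens living cells through tiny hollow tubes with short electric pulses and draws RNA out of them. The members were the protein-coding genes with an MRPL or MRPS symbol followed by a number and at most a letter, plus DAP3. This gave 79 of the 62700 genes in the files, 49 named MRPL and 30 named MRPS or DAP3. The rule uses symbols and no measured value, but it was set with earlier results of these data known.

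Total RNA of lysed A549 cells, grown as monolayers or as spheroids, was sequenced before NEE, right after it, and 2 h and 24 h after it, with 2 libraries labelled as biological replicates in each of these 8 groups. The other 3 libraries are technical replicates of RNA that NEE drew from A549 monolayers, and the labels give no time for this sampling. All 19 libraries were made by Smart-Seq2 from unmodified A549 cells, so every group shares the same line. Lysate RNA and NEE-sampled RNA were purified with different kits, so the way of sampling and the way of purification cannot be told apart. No labelled group was handled alongside without NEE, so time in culture and NEE cannot be told apart in the later time points either.

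The mitochondrial ribosome translates the few messages of the mitochondrial genome, all of which code for membrane subunits of the respiratory chain and ATP synthase. Its RNAs are made inside the organelle, whereas all its proteins are encoded in the nucleus, made in the cytosol and imported. The MRPL proteins build the large subunit, which holds the peptidyl transferase centre, and the MRPS proteins and DAP3 build the small subunit, which reads the message. The names are not a perfect guide, since MRPS30 and MRPS18A sit in the large subunit and MRPS36 is now known as a component of the alpha-ketoglutarate dehydrogenase complex. Members fall into proteins with a counterpart in bacterial ribosomes and proteins that were added in mitochondria. All 37 mitochondrially encoded genes, the ribosomal RNAs among them, were at 0 in all 19 libraries, so the RNA part of the mitochondrial ribosome was not measured.

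Promoters of the genes for mitochondrial proteins are known for sites of NRF1, of ETS factors such as GABP, and of YY1. RefSeq promoters (GRCh38.p14, 250 bases before to 50 bases after the start) matched 70 of the 79 members. The letters CCGGAAG, an ETS core, stood on either strand in 29 of these 70 promoters (41.4%), against 14.4% of 15301 protein-coding promoters and 10.7% of all 27305 promoters. An exact string of the YY1 consensus stood in 10 of the 70 (14.3%), against 1.41% and 0.916%. The NRF1 consensus, searched as 2 strings that can overlap (the capitals in the MRPL57 line show 1 of them), stood in 2 of the 70 (2.86%), against 2.83% and 2.18%. All strings were searched on both strands, and a match describes letters and is no evidence of binding. The 150 bases before the start are shown 5′ to 3′ for 5 members that the results below turn on and that hold a match there, with matches in capitals.
MRPL20, chr1:1407294-1407443, minus strand: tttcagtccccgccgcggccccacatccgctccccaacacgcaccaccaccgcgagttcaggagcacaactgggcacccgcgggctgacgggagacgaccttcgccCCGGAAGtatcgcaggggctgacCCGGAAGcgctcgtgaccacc
MRPS34, chr16:1773135-1773284, minus strand: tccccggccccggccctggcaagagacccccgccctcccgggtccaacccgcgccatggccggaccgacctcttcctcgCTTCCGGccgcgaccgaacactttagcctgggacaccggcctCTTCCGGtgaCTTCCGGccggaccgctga
MRPL57, chr13:21176508-21176657, plus strand: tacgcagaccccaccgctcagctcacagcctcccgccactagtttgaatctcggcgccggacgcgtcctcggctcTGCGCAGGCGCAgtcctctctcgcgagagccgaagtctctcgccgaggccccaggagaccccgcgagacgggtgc
MRPL3, chr3:131502972-131503121, minus strand: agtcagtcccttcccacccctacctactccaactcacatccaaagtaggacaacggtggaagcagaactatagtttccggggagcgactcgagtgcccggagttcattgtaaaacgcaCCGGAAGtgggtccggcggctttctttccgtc
MRPL47, chr3:179604639-179604788, minus strand: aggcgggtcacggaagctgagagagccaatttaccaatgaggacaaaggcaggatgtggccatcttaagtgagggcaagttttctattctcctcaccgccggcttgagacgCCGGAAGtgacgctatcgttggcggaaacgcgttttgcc
MRPS34 holds 3 ETS matches, all on the other strand (CTTCCGG), MRPL20 holds 2, MRPL3 and MRPL47 hold 1 each, and MRPL57 holds an NRF1 match and no ETS match. MRPL20, MRPS34 and MRPL57 were among the members with the clearest difference in NEE-sampled RNA, whereas MRPL3 hardly differed there, so an ETS match stood before members of either kind. Promoters without any of these strings also belonged to either kind. They include those of MRPL34, MRPL11, MRPS15 and MRPS14, which were higher, and of DAP3, which hardly differed. MRPS33, also higher, held 1 ETS match. MRPL3 and MRPL47 were lower in spheroids.

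Total counts were 16031034 to 24571083 in the lysates and 13626934 to 18512985 in NEE-sampled RNA, so that 3 counts equal 0.122 to 0.220 CPM (a gene's counts relative to all counts of its library). Between 76 and 77 of the 79 members passed 1 CPM in each library. The epithelial markers KRT8 and KRT18 were high in all libraries, KRT7 had at least 476 CPM and KRT19 at least 97.0 CPM. EPCAM was low in all, at 1.40 to 11.1 CPM. CDH1 had 5.72 to 11.7 CPM in NEE-sampled RNA and 16.6 CPM in replicate 1 of the monolayers before NEE. In the other lysates CDH1 had 56.7 to 223 CPM. Replicate 1 of the monolayers before NEE stood apart. The sum of its 8 markers of T and natural killer cells was 529 CPM. The other lysates had 13.1 to 45.8 CPM and NEE-sampled RNA 0.216 to 1.03 CPM. In this replicate all 8 were detected, with PRF1 at 204 CPM and CD3D at 0.407 CPM. Its epithelial sum was 6423 CPM, the lowest of the 16 lysates. Where leaving this library out moves a result by over 1.5 times, the value without it is given beside the result. The part of these markers in any result was not tested.

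Summed over all members, mitoribosomal messages made up 4293 to 6046 CPM in monolayers (median 5561), 4005 to 5275 CPM in spheroids (median 4671) and 9025 to 9901 CPM in NEE-sampled RNA (median 9308). The 3 NEE-sampled libraries lay above all 16 lysates for the MRPL sum and for the MRPS sum. MRPL genes summed to 2217 to 3299 CPM in monolayers, 2167 to 2884 CPM in spheroids and 5071 to 5535 CPM in NEE-sampled RNA. MRPS genes and DAP3 summed to 2076 to 2774 CPM in monolayers, 1838 to 2431 CPM in spheroids and 3954 to 4366 CPM in NEE-sampled RNA. The ratio of the MRPL to the MRPS sum was 1.07 to 1.24 in lysates and 1.27 to 1.29 in NEE-sampled RNA, without overlap. In monolayers before NEE the replicates were far apart, at 4293 CPM in replicate 1 and 6037 CPM in replicate 2, and these values nearly span the whole monolayer range.

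**Figure D1:**
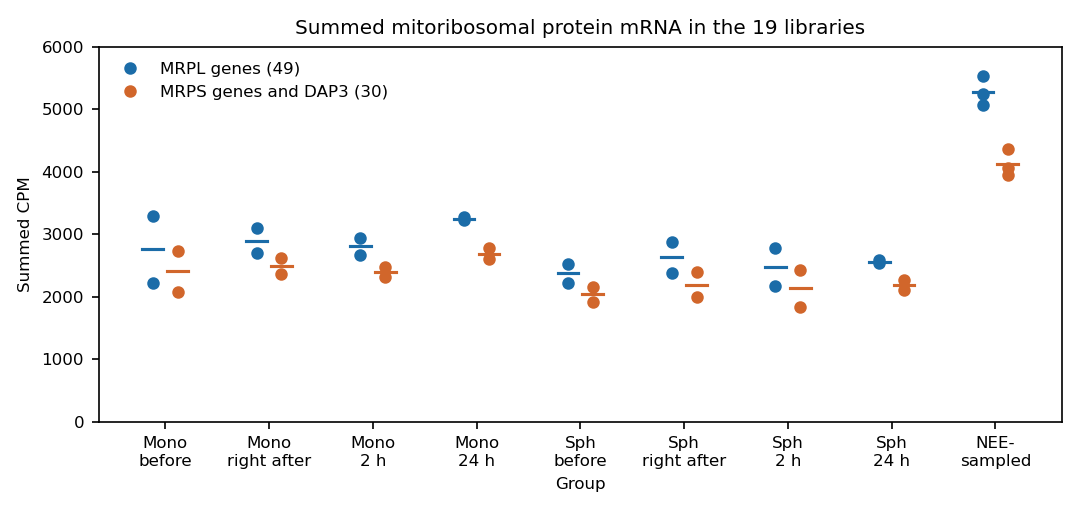
Summed CPM (y axis) of the 49 MRPL genes (blue) and of the 30 MRPS genes and DAP3 (orange) in each library, by group (x axis), with bars at group means. The 3 NEE-sampled libraries sit above all 16 lysates, and the 2 monolayer libraries before NEE lie far apart.

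Levels within the family spanned a wide range. Levels between genes are compared as CPM per kilobase of exon, averaged over the 16 lysates with their SD. The length used is that of all annotated exons of a gene merged, which can far exceed its median transcript length. These lengths were 3080 and 509.5 bases for MRPL49 and 6511 and 1369 bases for MRPS27, but 1191 and 1147 bases for MRPL15. The order of genes given here therefore depends on the length chosen, and an order by transcript length was not computed. Among MRPL genes MRPL15 was highest at 131 ± 28.0, followed by MRPL45 at 92.3 ± 12.7 and MRPL37 at 82.6 ± 17.1, the last pair being proteins added in mitochondria. Among MRPS genes MRPS26 (111 ± 40.2), MRPS35 (95.2 ± 14.1) and MRPS18B (78.1 ± 12.8) were highest, and all of these are classed as added proteins, MRPS18B although it belongs to the S18 family. MRPL45 and MRPL37 are within their spread of each other, as are MRPS26 and MRPS35. At the low end, MRPL53 had no count in any library, MRPL23 had 0.384 ± 0.307 and MRPL2 had 0.678 ± 0.223, while MRPS24 had 0.118 ± 0.155, MRPS18C 1.02 ± 0.414 and MRPS5 1.28 ± 0.342.

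These low values are not evidence of a missing subunit, since counting can lose reads of overlapping genes or of near-identical copies. MRPL53 shares 45.2% of its exon bases with CCDC142 on the same strand, and MRPS24 shares 23.2% with the read-through gene URGCP-MRPS24. MRPL38 shares 37.5% with AC087289.3 and MRPL12 68.2% with AC139530.2, so their levels are uncertain. An antisense exon overlaps 30 members, with 47.0% of the exon bases in MRPS18A (RSPH9) and 40.2% in MRPS18C (ABRAXAS1), and 37 members have at least 1 named pseudogene.

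The 3 relatives of bacterial protein S18 were at unequal levels, with MRPS18B at 78.1, MRPS18A at 15.2 ± 3.64 and MRPS18C at 1.02 CPM per kilobase. In plain CPM their means were 147, 19.5 and 4.95. The size of the gap depends on the length used. MRPS18C has 4866 bases of merged exons but a transcript length of 666, against 1888 and 1532 for MRPS18B. DAP3, a GTP-binding protein of the small subunit that was first described in cell death, was at 45.6 ± 5.51. MRPL12, a stalk protein that is also reported to bind the mitochondrial RNA polymerase, was at 9.55 ± 2.72. MRPS30 was at 9.32 ± 1.87 and MRPS36 at 6.52 ± 1.32. Among members with a mean of at least 5 CPM, the largest spread over the lysates was that of MRPL41, with an SD of 0.69 on the log2(CPM + 1) scale, followed by MRPS26 with 0.60 and MRPL18 with 0.55. Without replicate 1 of the monolayers before NEE these SDs were 0.72, 0.46 and 0.57, which puts MRPS26 in the fifth place.

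NEE-sampled RNA was compared with the 8 monolayer lysates, weighting the 4 times equally, to ask how far the drawn RNA holds these messages in the same proportions. Most mitoribosomal messages took a larger share of the drawn RNA. Of 78 members tested, 53 were higher and 1 was lower (edgeR quasi-likelihood test, adjusted p under 0.05 over 17067 genes), and 24 did not pass. Over all genes tested 48.6% passed, 22.5% higher and 26% lower. The members' median log2 fold change was 1.26, against −0.20 over all genes. It was 1.41 for MRPL genes, of which 35 of 48 were higher and 1 was lower, and 1.07 for MRPS genes and DAP3, of which 18 of 30 were higher and none was lower. The NEE-sampled values in plain CPM lay above all 8 monolayer libraries for 49 members (15.9% of all genes did so). They lay below all of them for MRPL38 and MRPS5 (29.5% of all genes).

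The fitted fold changes carry the scaling of edgeR (TMM), which gave the NEE-sampled libraries factors of 0.822 to 0.877 and the monolayers 1.03 to 1.13. They are therefore larger than ratios of plain CPM. With library totals alone, an alternative added after the results were seen, 48 members were higher and 4 lower (MRPL38, MRPS27, MRPS25 and MRPS5), with a median of 0.93 against −0.53 over all genes. The 3 technical replicates measure only the spread of repeated library work or sampling, and with their counts summed to 1 library 47 members were higher and 1 lower.

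MRPL34, the counterpart of a small bacterial protein of the large subunit (ENSG00000130312, GRCh38 chr19:17292609-17306843, plus strand), had 108, 83.1 and 109.7 CPM in the NEE-sampled libraries. In monolayers it ranged from 10.5 to 19.7 CPM with a median of 13.6, far below. Its log2 fold change was 3.15 ± 0.22 (SE; edgeR adjusted p = 1.4e-06), and 13.2% of its exon bases lie antisense to ABHD8. For the drawn RNA this SE and p rest on technical replicates and do not cover variation between independent experiments. The same holds for every gene named below in this comparison. MRPL11, a protein at the base of the stalk where translation factors bind, had 166, 133 and 150.2 CPM, against 29.8 to 51.8 CPM in monolayers (median 36.7). The groups did not overlap, and the log2 fold change was 2.28 ± 0.19 (adjusted p = 3.7e-06).

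MRPL57, a protein without bacterial counterpart, had 108, 88.2 and 112 CPM, against 26.3 to 35.2 CPM in monolayers (median 29.1). MRPL20, which binds ribosomal RNA early in assembly in bacteria, had 85.8, 68.0 and 96.6 CPM, against 17.9 to 25.8 CPM (median 21.9). Both lay above all monolayers, with log2 fold changes of 2.12 ± 0.18 and 2.28 ± 0.20 (adjusted p = 4.2e-06 and 4.3e-06). The largest fitted change was that of MRPL41, a protein added in mitochondria, which had 100.5, 61.6 and 79.6 CPM against 2.10 to 12.4 CPM (log2 fold change 3.64 ± 0.41). It is also the member whose level varied most between lysates.

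Of the small subunit, MRPS15 (counterpart of bacterial S15, an early RNA binder) had 153, 141 and 202 CPM, against 32.2 to 61.0 CPM in monolayers with a median of 42.1. MRPS34 (ENSG00000074071, chr16:1771890-1773155, minus strand), a protein added in mitochondria, had 321, 285 and 343 CPM, against 42.9 to 115 CPM (median 81.8). Neither overlapped the monolayers, with log2 fold changes of 2.27 ± 0.20 (adjusted p = 4.7e-06) and 2.37 ± 0.25 (adjusted p = 1.7e-05). MRPS14, counterpart of bacterial S14, had 63.7, 58.3 and 59.1 CPM against 17.0 to 33.5 CPM (log2 fold change 1.75 ± 0.20). MRPS33 had 65.1, 45.5 and 78.5 CPM against 17.7 to 25.2 CPM (log2 fold change 1.92 ± 0.22).

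MRPL38 (ENSG00000204316, chr17:75898643-75905413, minus strand) was the only member called lower. It had 0.220, 0.0699 and 0.162 CPM in NEE-sampled RNA, at or under the level of 3 counts, against 1.19 to 4.76 CPM in monolayers. Its log2 fold change was −3.48 ± 0.77 (adjusted p = 0.0026), and a filter of 5 CPM in 2 libraries removed it from the test. It is a low gene whose exons are shared with a neighbour, as given above.

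Other members hardly differed between the drawn RNA and the lysates. DAP3 (ENSG00000132676, chr1:155687960-155739010, plus strand) had 165, 186 and 188 CPM in NEE-sampled RNA, against 186 to 270.0 CPM in monolayers, and its fitted log2 fold change was 0.03 ± 0.17 (adjusted p = 0.91). MRPS30 had 35.4, 60.3 and 67.8 CPM against 64.0 to 74.0 CPM (0.01 ± 0.21). MRPL3, which lies near the peptidyl transferase centre, had 153, 179 and 148 CPM against 145 to 241 CPM (−0.03 ± 0.16). MRPL42, MRPS22 and MRPL35 had fitted values of 0.01, 0.07 and −0.13. In plain CPM the median of the NEE-sampled libraries lay below that of the monolayers in all 6, so the sign for DAP3, MRPS30, MRPL42 and MRPS22 depends on the scaling.

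**Figure D2:**
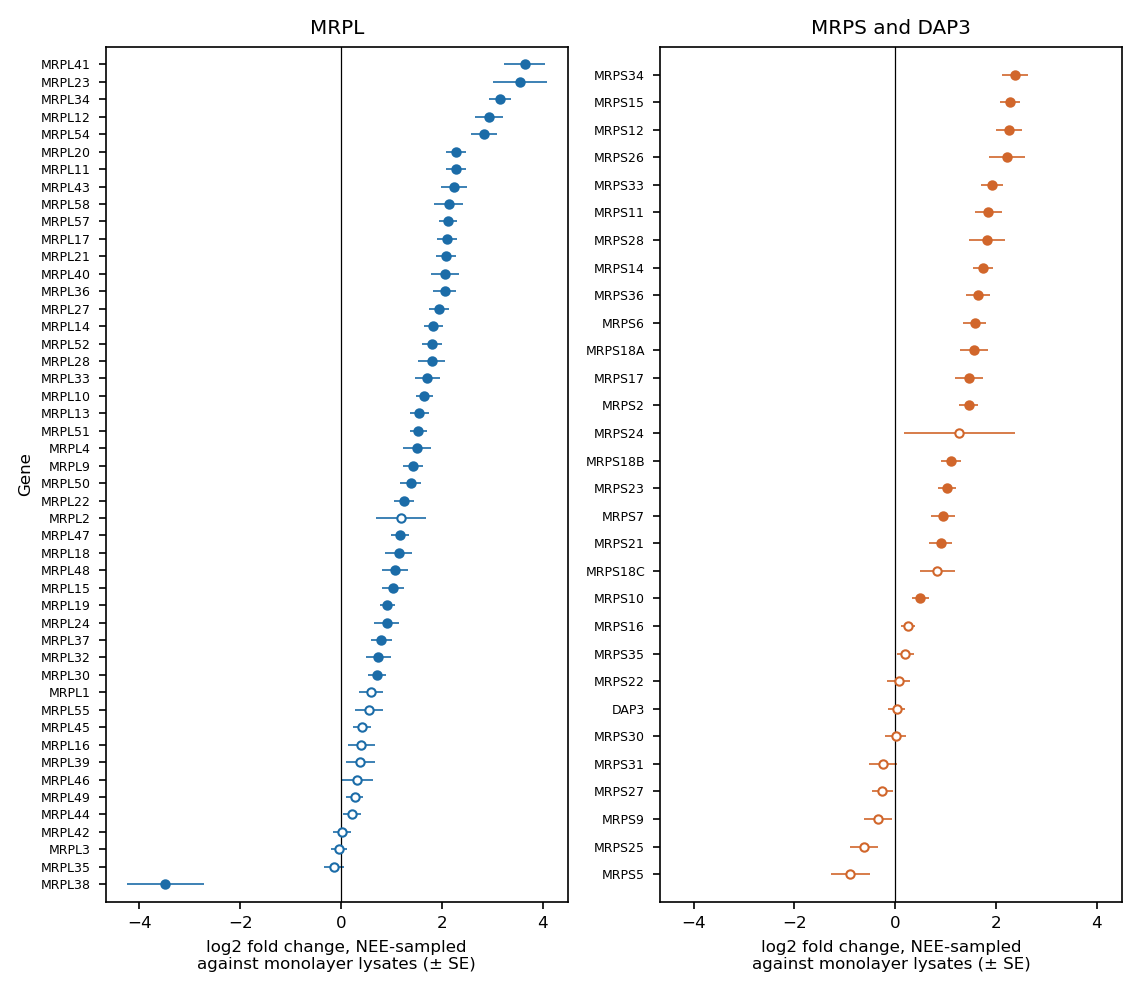
Fitted log2 fold change (x axis, with SE) of each of 48 MRPL genes (left) and 30 MRPS genes and DAP3 (right) in NEE-sampled RNA against monolayer lysates. Filled points passed the test and open points did not, and all filled points but MRPL38 lie to the right of 0.

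By place in the ribosome and by ancestry, 24 of 30 large-subunit proteins with a bacterial counterpart were higher (median log2 fold change 1.47), and 12 of 20 large-subunit proteins added in mitochondria (median 1.22), with MRPL38 lower. In the small subunit 11 of 16 with a bacterial counterpart were higher (median 1.36). Of the 11 added proteins of the small subunit 5 were higher (MRPS18B, MRPS23, MRPS26, MRPS33 and MRPS34), and their median was 0.20, with DAP3, MRPS22, MRPS25, MRPS27, MRPS31 and MRPS35 not passing. MRPS36 was higher by 1.64 ± 0.24 with no place in the ribosome. MRPS18A and MRPS18B are counted as added in mitochondria here, although they are relatives of bacterial S18. The differences between these classes were not tested. In the S18 group MRPS18A was higher by 1.56 ± 0.28 and MRPS18B by 1.11 ± 0.20, whereas MRPS18C, at 0.84 ± 0.35, did not pass (adjusted p = 0.068). MRPL12 was higher by 2.94 ± 0.27, a value that includes any read of its overlapping neighbour.

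Mitoribosomal messages are short, with transcript lengths of 461 to 3332 bases and a median of 1147, against 2564.5 for the 13440 protein-coding genes tested. Other short messages were also higher in NEE-sampled RNA at the median, with exceptions. Below 1000 bases the median log2 fold change was 1.80 over 27 members and 1.53 over 1053 protein-coding genes. It was 1.05 over 26 members and 0.86 over 1495 protein-coding genes at 1000 to 1500 bases. At 1500 to 2500 bases it was 0.61 over 22 members, against −0.00 over 3969 protein-coding genes. In these classes 74.1%, 69.2% and 54.5% of the members were higher, against 65.1%, 48.4% and 26.6% of protein-coding genes. None, none and 4.55% of the members were lower, against 6.27%, 9.83% and 22.7% of protein-coding genes. Above 2500 bases there were 3 members, all of them higher, against 12.6% of 6923 protein-coding genes. Across the 78 members the log2 fold change had a Pearson r of −0.30 with log2 length and a Spearman rho of −0.33, against −0.33 and −0.40 across the 13440 genes. With the members' mean level in monolayers, which is also the base of the fold change, the Spearman rho was −0.34. That value was not computed across all genes. Genes are not independent, and all share the same libraries and depth. The part of length or of level in the members' difference was not tested.

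**Figure D3:**
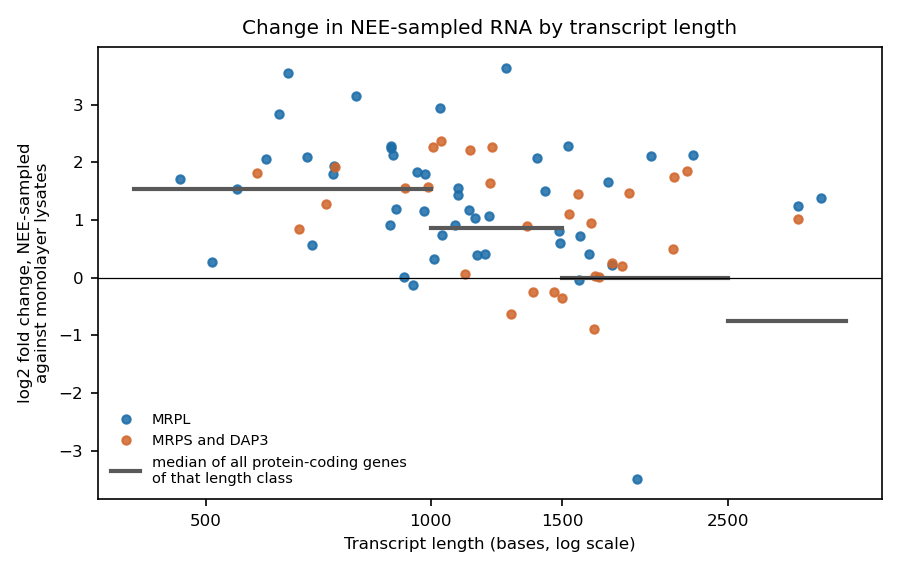
Log2 fold change of each member in NEE-sampled RNA against monolayer lysates (y axis) by transcript length in bases (x axis, log scale), with MRPL genes in blue, MRPS genes and DAP3 in orange. Grey bars are medians of all protein-coding genes in 4 length classes, falling from 1.53 below 1000 bases to −0.75 above 2500 bases.

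Cytosolic ribosomal and respiratory chain genes moved the same way. Cytosolic ribosomal proteins took 6.45 to 7.90% of counts in NEE-sampled RNA against 1.31 to 1.88% in lysates, and 75 of 79 were higher (median log2 fold change 2.33, 1 lower). Nuclear-encoded respiratory chain subunits took 1.44 to 1.61% against 0.689 to 1.13%, with 61 of 75 higher and 2 lower (median 1.59). The 10 largest genes of a library took 18.8 to 21.5% of counts in NEE-sampled RNA and 6.26 to 10.7% in lysates. These values move with the comparison, and their part in it was not tested.

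The rest of the mitochondrial translation system did not follow the ribosomal proteins as a block. Of 5 other mitoribosomal proteins, GADD45GIP1 (4.35 ± 0.32), CHCHD1 (2.46 ± 0.22) and AURKAIP1 (2.42 ± 0.24) were higher, as was MRPL58, a peptidyl-tRNA hydrolase of the large subunit that is also a member. PTCD3, a pentatricopeptide protein of the small subunit, was lower by −1.39 ± 0.20. Of 14 translation factors tested 6 were higher and 5 lower, the elongation factors GFM1 (−1.92 ± 0.19) and GFM2 (−2.15 ± 0.23) and the RNA-binding LRPPRC (−2.29 ± 0.21) among the lower ones. Of 24 assembly and ribosomal RNA modification factors 6 were higher and 5 lower, close to the shares over all genes (22.5% higher, 26% lower). MALSU1, an assembly factor of the large subunit, was at 2.24 ± 0.20 and NGRN at 1.39 ± 0.18. DHX30 was at −1.05 ± 0.19 and FASTKD2 at −2.84 ± 0.27.

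The next lists stand beside the same shares over all genes, 22.5% higher and 26% lower. Of 9 genes of mitochondrial DNA expression 2 were higher and 3 lower. The single-strand binding protein SSBP1 was at 0.87 ± 0.17 and the packaging and transcription factor TFAM at −0.85 ± 0.20. Of 9 regulators of mitochondrial biogenesis 2 were higher and 6 lower, with ESRRA at 1.84 ± 0.27, YY1 at 0.93 ± 0.19, GABPB1 at −1.10 ± 0.21 and MYC at −2.70 ± 0.26. Import components were mostly higher, 13 of 22 against 2 lower, with TOMM22 at 2.27 ± 0.20, TIMM13 at 2.18 ± 0.21 and TIMM17B at 2.33 ± 0.24, while the import motor HSPA9 was at −1.93 ± 0.20.

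Spheroids were compared with monolayers over the 4 times, to ask how culture form bears on these messages. Few members changed, and most of those that did were lower in spheroids. Of 78 members 10 were lower and 2 higher (edgeR adjusted p under 0.05 over 17822 genes). Over all genes 19.9% passed, 10% higher and 9.84% lower, so that 12 of 78 is no larger a share than the background. The members' median log2 fold change was −0.15, against −0.02 over all genes, and 20 of 78 were above 0. Of the 30 large-subunit proteins with a bacterial counterpart 7 were lower, and of the 20 added in mitochondria 2. In the small subunit these counts were 1 of 16 and 0 of 11. Class differences were not tested, and several of the lower calls were lost under alternatives, as given below. The 2 higher calls were lost with library totals alone, where 15 members were lower and none higher.

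MRPL35, a small protein of the large subunit (ENSG00000132313, chr2:86199355-86213794, plus strand), had 39.9 to 59.0 CPM in spheroids (median 48.0) and 63.6 to 116 CPM in monolayers (median 78.0). All 8 spheroid libraries lay below all 8 monolayers. Its log2 fold change was −0.68 ± 0.14 (adjusted p = 0.0038), and it passed under all 25 alternatives that were run for this comparison. The highest value, 116 CPM, was that of replicate 1 of the monolayers before NEE. MRPS30 (ENSG00000112996, chr5:44808925-44820428, plus strand) had 41.6 to 55.6 CPM in spheroids (median 46.3) and 64.0 to 74.0 CPM in monolayers (median 68.0), also without overlap. Its log2 fold change was −0.45 ± 0.11 (adjusted p = 0.011), and it failed to pass under 1 alternative.

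MRPS16, counterpart of a bacterial small-subunit protein, had 139 to 168 CPM in spheroids (median 147) and 191 to 230.0 CPM in monolayers (median 204). MRPL47, which sits by the exit of the peptide tunnel, had 16.3 to 21.4 CPM (median 18.8) and 22.7 to 31.8 CPM (median 27.7). Neither overlapped in plain CPM, with log2 fold changes of −0.38 ± 0.09 (adjusted p = 0.013) and −0.50 ± 0.13 (adjusted p = 0.015). MRPL21, the fifth member without overlap in plain CPM, had 13.9 to 21.0 CPM and 21.4 to 31.3 CPM, but failed to pass under 17 of the 25 alternatives. With TMM scaling MRPL47 and MRPL21 did overlap. MRPL47 then had 22.1 in spheroid replicate 2 at 24 h and 21.4 in monolayer replicate 1 before NEE. MRPL21 had 21.16 in spheroid replicate 2 right after NEE and 21.07 in monolayer replicate 1 at 2 h. Over all genes 4.51% lay below without overlap in plain CPM and 2.49% above, where no member did.

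MRPL3 had 122 to 168 CPM in spheroids (median 148) and 145 to 241 CPM in monolayers (median 209.6), overlapping only through replicate 1 of the monolayers before NEE at 145 CPM. Its log2 fold change was −0.40 ± 0.10 (adjusted p = 0.015). MRPL18, which is reported to take part in the import of 5S ribosomal RNA, had 32.6 to 59.6 CPM and 49.4 to 113 CPM (−0.70 ± 0.21), with overlap. MRPL3 failed to pass under 7 of the 25 alternatives and MRPL18 under 10, as did MRPS16 and MRPL47 under 4 each. MRPL1, MRPL19 and MRPL46 were lower with adjusted p of 0.043, 0.044 and 0.046 and failed to pass under 15 to 19 of the alternatives.

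The 2 higher members were MRPL10, at the base of the stalk, and MRPS14. MRPL10 had 166 to 231 CPM in spheroids (median 215) and 97.7 to 206 CPM in monolayers (median 168), and its log2 fold change was 0.42 ± 0.12 (adjusted p = 0.020). MRPS14 had 22.4 to 40.3 CPM and 17.0 to 33.5 CPM (0.48 ± 0.16, adjusted p = 0.045). Of the 25 alternatives, 6 left MRPL10 and 16 left MRPS14 without a call. The cultures overlapped in both genes.

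**Figure D4:**
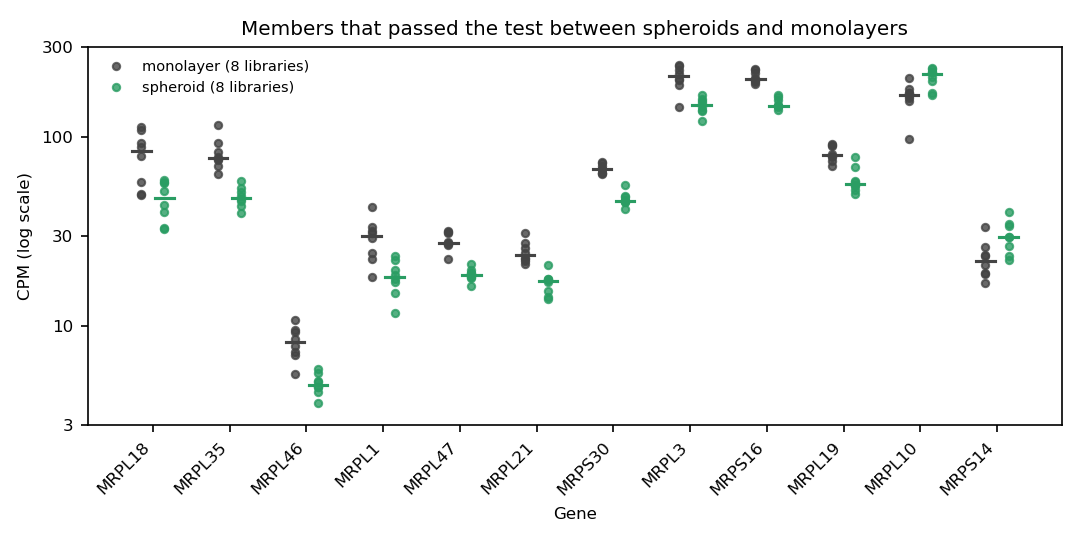
CPM (y axis, log scale) of the 12 members that passed the test between spheroids (green) and monolayers (grey), 8 libraries each with bars at medians, ordered by log2 fold change (x axis). On this scale MRPL35, MRPL47, MRPL21, MRPS30 and MRPS16 separate the cultures without overlap. With TMM scaling, which the test used, MRPL47 and MRPL21 overlap.

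With the 3 times after NEE alone, 5 members passed, and all were among the 12. They are MRPL35, MRPS30, MRPS16, MRPL47 and MRPL3. Leaving out 1 library gave 3 members (without spheroid replicate 1 at 2 h) to 13 (without monolayer replicate 1 before NEE). The count fell by over 1.5 times also without either replicate of the monolayers right after NEE (7 and 6), at 2 h (6 and 4) or at 24 h (7 and 5), and without spheroid replicate 1 before NEE (6), either spheroid replicate right after NEE (6 and 4) or spheroid replicate 1 at 24 h (4). Testing all genes without a filter left 2.

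Around these members, TFAM (−0.75 ± 0.13), SSBP1 (−0.58 ± 0.12), FASTKD2 (−0.74 ± 0.13), SLIRP (−0.77 ± 0.23) and PTCD3 (−0.39 ± 0.13) were lower in spheroids, the first pair being DNA-binding and the others RNA-binding proteins of mitochondria. They were 2 of 9 genes of mitochondrial DNA expression and 1 of 24 assembly factors. The others were 1 of 15 translation factors and 1 of 5 other mitoribosomal proteins, and none of these lists had a higher gene. Over all genes 9.84% were lower and 10% higher, and the lists were not tested against these shares. Of the import components 3 of 22 were lower, TIMM10 (−0.80 ± 0.18), HSPA9 (−0.46 ± 0.12) and TIMM8A (−0.55 ± 0.18). Among the regulators the coactivator PPARGC1A was higher (2.27 ± 0.53) and its relative PPARGC1B lower (−1.74 ± 0.51). Respiratory chain subunits had 2 higher and 3 lower of 75 (median −0.04), and cytosolic ribosomal proteins 2 higher and 16 lower of 79 (median −0.34). In bulk lysates, fewer cells of a kind and less RNA per cell cannot be told apart.

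Each later time was compared with before NEE in each culture, to ask whether NEE or the time after it was followed by a change. No member passed in any of the 6 comparisons (edgeR, 78 members each). Over all genes 0% passed in the monolayers right after NEE and at 24 h and in the spheroids at the same times, 0.00561% in monolayers at 2 h and 0.0112% in spheroids at 2 h. DESeq2 called no member either. At an unadjusted p under 0.05 there were 2 members in monolayers at 24 h and 0 in each of the other 5 comparisons. The median SE of a member's log2 fold change was 0.34, close in size to the differences between cultures that passed with 8 libraries each. No gene of the other mitochondrial and ribosomal lists passed either.

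The members' median log2 fold change was −0.00, −0.03 and 0.22 in monolayers right after NEE, at 2 h and at 24 h, and 0.18, 0.12 and 0.08 in spheroids. Over all genes the medians lay between −0.03 and 0.00. The monolayer values hang on the pair of libraries before NEE, whose member sums were far apart. Without replicate 1 the medians were −0.34, −0.31 and −0.05, and without replicate 2 they were 0.33, 0.36 and 0.60. No direction can therefore be given for monolayers. In the spheroids 54, 50 and 50 of 78 members were above 0. Spheroid medians under the alternatives were −0.014 to 0.27 right after NEE, −0.11 to 0.26 at 2 h and 0.04 to 0.14 at 24 h. Their sign changed right after NEE and at 2 h, so no direction can be given there either.

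MRPL10 and MRPL3 had the smallest unadjusted p in monolayers at 24 h. MRPL10 had 97.7 and 160.2 CPM before NEE, 172 and 165 CPM right after it, 181 and 155 CPM at 2 h and 206 and 171 CPM at 24 h. Its log2 fold change at 24 h was 0.56 ± 0.23 (unadjusted p = 0.029, edgeR adjusted p = 1). MRPL3 had 145 and 188 CPM before NEE and 241 and 217 CPM at 24 h (0.47 ± 0.21, unadjusted p = 0.038, adjusted p = 1). In both genes the lowest monolayer value is that of replicate 1 before NEE, the library with lymphocyte markers, and without it the log2 fold changes were 0.25 for MRPL10 and 0.30 for MRPL3. Without replicate 2 before NEE, MRPL4 passed at 24 h (1.75, adjusted p = 0.0385), the only call in any alternative for these comparisons.

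In spheroids the smallest unadjusted p belonged to MRPL57, MRPL20 and MRPL21 right after NEE (log2 fold changes −0.47, 0.46 and 0.39), to MRPL33, MRPL38 and MRPL10 at 2 h (−0.78, 1.14 and −0.41) and to MRPL14, MRPL57 and MRPS6 at 24 h (−0.57, −0.54 and 0.72). MRPL33, which has 13.1 and 12.4 CPM in spheroids before NEE and 11.0 and 14.9 CPM right after it, had 7.79 and 7.36 CPM at 2 h and 9.04 and 8.42 CPM at 24 h. The 4 later values lie below the 4 earlier ones, and the late against early log2 fold change was −0.68 ± 0.27 (unadjusted p = 0.027, edgeR adjusted p = 1.00). In monolayers right after NEE and at 2 h the same 2 genes led, MRPL3 (0.43 and 0.41) and MRPL10 (0.42 and 0.43), followed by MRPS36 (−0.61) and MRPS18C (−0.85), none with an unadjusted p under 0.05. Without replicate 1 before NEE, these values were 0.24 and 0.23 for MRPL3 and 0.09 and 0.11 for MRPL10.

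**Figure D5:**
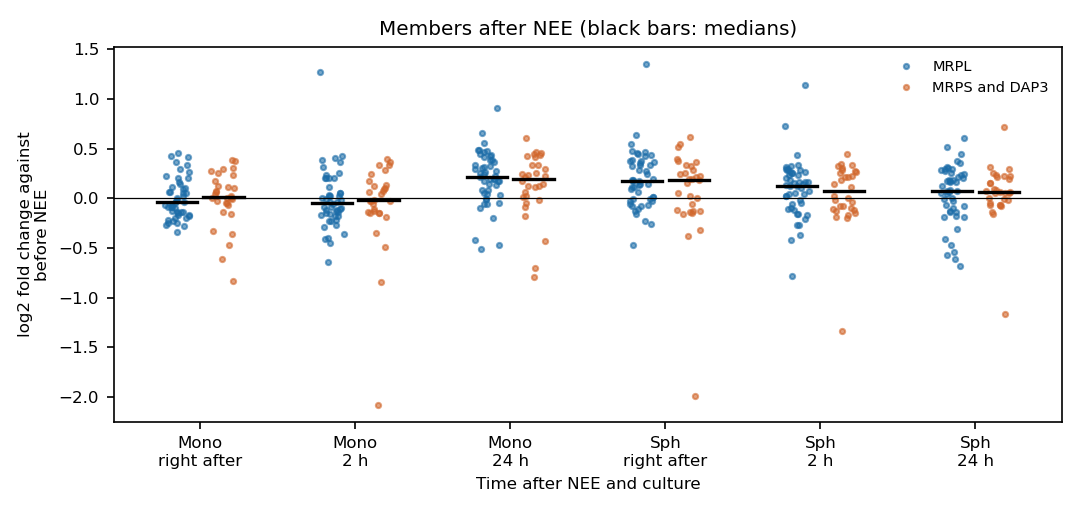
Log2 fold change against before NEE (y axis) of each member at 3 times in monolayers and spheroids (x axis), MRPL genes in blue, MRPS genes and DAP3 in orange, with black bars at medians. No point passed the test, and the medians lie near 0 in each comparison.

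Whether the 2 cultures differed in their course was tested as an interaction at 2 h and at 24 h. No member passed (0% of all genes in each, edgeR), none passed with DESeq2, and 1 member at 2 h and 0 at 24 h had an unadjusted p under 0.05. This was MRPL10, with an interaction of −0.85 ± 0.33 on the log2 scale (unadjusted p = 0.021, adjusted p = 1.00), which was −0.53 once replicate 1 before NEE of the monolayers was left out. In spheroids it had 209 and 231 CPM before NEE and 171 and 166 CPM at 2 h, and the monolayer values are given above. Late against early times (2 h and 24 h against before and right after NEE) gave no member in either culture, with edgeR or DESeq2, against 0% of all genes in monolayers and 0.0112% in spheroids. There 0 members in monolayers and 1 in spheroids had an unadjusted p under 0.05.

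The spread between replicates was smaller for members than for all genes in 5 of the 9 groups. Over members with a mean of at least 5 CPM the median coefficient of variation was 13.2% in the 3 NEE-sampled technical replicates (all genes 21.0%). In the lysate groups it was 9.87 to 17.6% (all genes 15.4 to 18.9%) apart from the monolayers before NEE, where it was 34.1% (all genes 28.9%).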

How the data were processed

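The deposited files hold raw counts per Ensembl gene, as the authors made them. The submitters' processing notes name GRCh38 and the tools FastQC, Trimmomatic, HISAT2 and featureCounts. Their versions, the annotation, strand use and the treatment of reads with several hits: not given in the sources used here. Overlapping genes and genes with copies are therefore uncertain. Coordinates and overlaps are from GENCODE release 29, which placed 58207 of the 62700 genes. Reads from PCR without molecular identifiers are not independent molecules.

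Counts were used as deposited. Members were tested within all genes by the robust quasi-likelihood F test of edgeR 4.0.16 (R 4.3.3), after filterByExpr and TMM scaling, at a Benjamini-Hochberg adjusted p under 0.05. The lysate fit held 16 libraries in 8 groups, 17822 genes and 8 residual degrees of freedom. The fit for NEE-sampled RNA held 11 libraries, 17067 genes and 6 residual degrees of freedom. MRPL53 passed no filter, which left 78 members. The calling was tested on simulated data. CPM are counts per library total. Descriptions and figures used scipy 1.17.1, numpy 2.4.6, pandas 2.3.3 and matplotlib 3.10.9 under Python 3.11.15.

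Of called members all were to be named if at most 10, otherwise the 4 MRPL and 4 MRPS of each sign with the smallest p, and the 3 smallest p where none was called. To these came the 3 highest and lowest levels per kilobase, the 3 largest spreads, DAP3, MRPL12, MRPS18A, MRPS18B, MRPS18C, MRPS30 and MRPS36, and up to 4 called genes of each other list. MRPL42, MRPS22, MRPL35 and MRPL41 in NEE-sampled RNA, and MRPL21, MRPL1, MRPL19 and MRPL46 in spheroids, were named after their values were seen. Members and lists were chosen with earlier results of these data known. The classes by subunit and ancestry (from general knowledge), the length classes, the counts of groups without overlap, the promoters shown and 2 alternatives (library totals alone, summed technical replicates) were chosen after the tests were seen.

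Alternatives fixed earlier were DESeq2 1.42.0, upper-quartile or RLE scaling, testing without a filter or with one of 5 CPM in 2 libraries, a block for the replicate number, thinning to 13626934 counts, other sets of groups, and leaving out each library. Replicate numbers are those of a label tagged batch. Deviations of same-numbered lysate libraries from their group means correlated at −0.32 to 0.53 over 28 pairs (median 0.21, 19 pairs above 0.1, 8840 genes), and the tag was taken as pairing the lysates, a reading made after the counts with the block had been seen. For NEE-sampled RNA the number counts technical repeats.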

Additional observations from a re-analysis of the deposited data

How the results depend on the processing

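In NEE-sampled RNA the count of 54 members was 48 to 60 under 23 alternatives, of which leaving out 1 library gave 51 to 59, and 45 of the 54 passed in every one, MRPL38 being left untested by the filter of 5 CPM. In spheroids against monolayers the count of 12 was 2 with no filter on low counts and 5 with the 3 times after NEE only, and leaving out 1 library gave 3 to 13. Under the 25 alternatives it was 2 to 16, and MRPL35 alone passed in each. In monolayers at 24 h leaving out 1 library gave 0 to 1. All other alternatives left the counts of the 6 time comparisons, the 2 late against early comparisons and the 2 interactions at 0. With the replicate number as a block, 53 members passed in NEE-sampled RNA and 14 in spheroids. For NEE-sampled RNA this block pairs nothing real, since the number counts technical repeats and replicate 3 has a block level to itself. The block moved no count of members by over 1.5 times, and in the other 10 comparisons it stayed at 0. A library left alone in its group was taken to vary as the other groups do. The cause of these shifts was not tested. Depth limits members near 3 counts, such as MRPS24, MRPL23 and MRPL38.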
